A study of Mus musculus with 16 samples.

Results

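The genes described here encode the proteins of the cytosolic ribosome. They were chosen by name: an entry had to follow the mouse naming pattern for large (Rpl) or small (Rps) subunit proteins or be Rplp0, Rplp1, Rplp2 or Rpsa, and had to have a count above 0 in all 16 libraries. Of 24421 genes in the deposited table, 83 met the rule, with 45 for the large subunit and its stalk, 31 for the small subunit and 7 for paralogues, second genes whose sequence resembles that of a standard ribosomal protein gene. Of the paralogues, Rps4l is annotated in GENCODE as a transcribed processed pseudogene. The requirement for a count in every library is the only part of the rule that uses measured values, and the gene group itself was chosen with earlier results of these data known. It left out 2 names, Rpl26, which had 0 counts in all 16 libraries, and Rpl10l, which had 2 counts in 1 library. Low counts were mostly even numbers, and whether read pairs were counted as 2 could not be settled, so low counts may stand for fewer fragments. Just inside the requirement were Rpl3l with 3 to 14 counts per library, Rpl30 with 34 to 71 and Rpl39l with 48 to 138.

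A ribosome joins a small subunit, which reads the messenger RNA, to a large subunit, which links amino acids. The messages for its proteins are short and abundant, and most begin with a C followed by a run of C and T letters in the DNA. This TOP (terminal oligopyrimidine) start lets the growth kinase mTORC1, acting through the RNA-binding protein LARP1, set how much they are translated. Naive T cells are resting cells that translate little, and activation through the T cell receptor raises ribosome synthesis. RNA sequencing measures the messages and not their translation.

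Lymph node T cells of C57BL/6 mice with a naive surface profile (CD25-, CD62Lhi, CD44lo) had been sorted by flow cytometry as CD4+ or CD8+. Each lineage was divided by surface CD5, and the third of cells that stained brightest (CD5hi) and the third that stained dimmest (CD5lo) were collected. CD5 dampens signals of the T cell receptor, and naive cells that bind self ligands more strongly carry more of it. The groups, CD4 CD5lo, CD4 CD5hi, CD8 CD5lo and CD8 CD5hi, had 4 biological replicates each and no treatment or genetic change. The sources used here do not give ages or say whether replicates were separate animals or pools, so p-values measure the spread between these libraries. Since each CD5 gate was set within a lineage, CD5hi does not mean the same amount of CD5 in CD4 and CD8 cells: Cd5 averaged 1386 counts relative to library size (CPM) in CD4 CD5hi and 498 in CD8 CD5hi.

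Libraries held 71447252 to 93418385 counts. The 5 T cell markers summed to 2945 CPM or more in every library, and Cd4 and Cd8a followed the labels. Some libraries stood apart. The sum of 15 B cell markers was 384 CPM in CD4 CD5lo replicate 3, 619 CPM in CD8 CD5lo replicate 3 and 1007 CPM in CD8 CD5hi replicate 4, and 11.4 to 73.6 CPM in the remaining 13. CD8 CD5hi replicate 1 had the fewest genes with a count (14455, against 14644 to 15991 in the others) and the largest share of counts in ribosomal protein genes. Results that rest on these libraries are given below with and without them.

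The annotated starts of 8 of the genes that passed a test are printed here. Each window is 30 bases of the RefSeq annotation of GRCm38.p6, 15 before and 15 from the annotated start on, read 5′ to 3′ on the gene's strand, with the longest run of C and T in capitals. Where a gene has several annotated starts, the one with the longest run is shown, so it was picked for this feature. Of the genes printed, this holds for Rps19 with 3 starts and Rpl34 with 2. They are shown because a TOP start is the feature these genes are known to share. The capitals lie wholly before the annotated start in Rpl4 and Rpl6, across it in Rpl14, Rps27 and Rpl34, and from it on in Rps12, Rps26 and Rps19, so they mark a run near the start and not a TOP start as such. The first pair differed by CD5 level in CD8 cells, the second pair was higher in CD8 than in CD4 cells at high CD5, the third pair was lower in CD8 cells at low CD5, and the last pair was lower in CD8 cells at high CD5.
Rps12 (chr10:23787195-23787224, minus strand): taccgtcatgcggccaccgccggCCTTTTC
Rps26 (chr10:128626492-128626521, minus strand): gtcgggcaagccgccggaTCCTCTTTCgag
Rpl4 (chr9:64173372-64173401, plus strand): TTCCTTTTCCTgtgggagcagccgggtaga
Rpl6 (chr5:121204486-121204515, plus strand): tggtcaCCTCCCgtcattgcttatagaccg
Rps19 (chr7:24884898-24884927, plus strand): gagggagcggggtgtggagggCTCTCCCac
Rpl14 (chr9:120571502-120571531, plus strand): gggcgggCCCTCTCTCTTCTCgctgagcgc
Rps27 (chr3:90213634-90213663, minus strand): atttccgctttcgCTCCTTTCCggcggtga
Rpl34 (chr3:130730323-130730352, minus strand): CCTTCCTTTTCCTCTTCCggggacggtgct

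Promoters were found for 62 of the 83 genes, 74 starts in all. An unbroken run of at least 8 C or T letters lay in 37.8% of their windows, against 12% of the windows of all 32851 annotated starts, and the median longest run was 6 bases against 4. Of the windows printed, those of Rps26, Rpl4, Rpl14, Rps27 and Rpl34 hold such a run, and those of Rps12, Rpl6 and Rps19 do not. In the 300-base promoters (250 before and 50 from the start on, both strands), CCGGAAG, a core of ETS family sites, was in 35.1% of those of ribosomal protein genes and in 8.86% of all. The letters TATAAA were in 9.46% against 13.6%, and TCTTT in 59.5% against 55%. A match of letters is a description and not a site of binding. Genes were also split by whether any of their annotated starts had the run of 8. Genes with and without it had near median changes in each comparison below, for example a log2 change of 0.13 (27 genes) and 0.14 (35 genes) for CD5hi against CD5lo in CD8 cells.

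Levels differed widely among the 83 genes. Per kilobase of coding sequence the median was 2604 CPM, with quartiles of 1633 and 3586 and a full range of 0.0817 to 13042. Rpl41, which encodes the smallest ribosomal protein, stood highest at 13042 CPM per kilobase. Rps29, a zinc-binding small subunit protein, followed at 10663, and Rplp1, an acidic protein of the stalk that engages elongation factors, at 8219. This order depends on dividing by the coding part, which is 75 bases in Rpl41, 168 in Rps29 and 342 in Rplp1. Without that division Rpl41 averaged 978 CPM, against 4000 CPM for Rplp0. The 7 paralogues had a median of 66.6 CPM per kilobase, and the 76 other genes one of 2840. Rpl3l, the striated muscle form of Rpl3, was lowest at 0.0817 CPM per kilobase, and Rps4l at 3.40 (per kilobase of its whole transcript, as it has no annotated coding part) and Rpl39l, known for its expression in testis, at 7.72 were also low. The paralogues with most message were Rpl22l1 at 494 and Rpl36al at 431 CPM per kilobase, below their standard partners Rpl22 at 1268 and Rpl36a at 1632.

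Of the standard genes, Rpl30 at 1.83, Rpl34 at 18.4 and Rps27 at 38.1 CPM per kilobase lay far below the rest, of which the lowest was Rpl29 at 917, and Rpl26 had no counts. These encode core proteins that every ribosome is thought to carry. Sequence shared with other genes was counted as the share of 50-base words of the coding sequence that occur in the transcripts of another GENCODE gene, most of them processed pseudogenes. The median over the 83 genes was 91.3%, with 30 genes at 100% and 15 under 50%. It was 83.1% for Rpl30, 72.2% for Rpl34 and 100% for Rps27, but also 100% for Rps12 and Rpl41, so genes with much shared sequence lay at both ends of the range. The sources used here do not say how reads that fit several places were counted, and levels of genes with much shared sequence are therefore uncertain. The 15 genes under 50% had a median of 2785 CPM per kilobase and the other 68 one of 2572. The plot of level against shared sequence shows the low standard genes beside the paralogues.

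**Figure D1:**
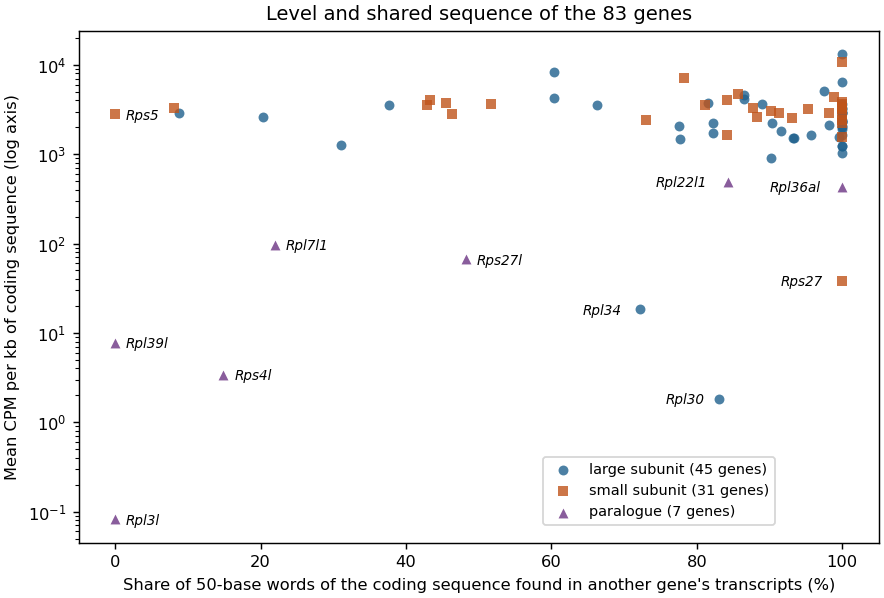
Mean CPM per kilobase of coding sequence over 16 libraries (vertical, log axis) against the share of 50-base words of the coding sequence that occur in another gene's transcripts (horizontal, %). Each point is 1 of the 83 genes; the 7 paralogues and Rpl30, Rpl34 and Rps27 lie below the other genes, which range from 917 to 13042.

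The standard genes varied little between replicates. The pooled within-group SD of log2 CPM had a median of 0.128 over the 83 genes. Over all 13554 tested genes the median was 0.196, taken with a small prior count added to each value, which narrows the spread of genes with few counts. The medians are thus not computed alike, and the genes were not matched for level. Among the 83 genes the SD was smallest for Rps4x (0.053), Rpl14 (0.054) and Rpl6 (0.058). It was largest for the paralogues Rps4l (0.678), Rpl3l (0.575) and Rpl39l (0.544). All 83 genes passed the filter on low counts and were tested.

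The 83 genes were summed to show how much of each library they fill. Their share of all counts was 11.58, 11.28, 11.17 and 10.41% in CD4 CD5lo replicates 1 to 4 and 11.35, 9.72, 10.70 and 10.61% in CD4 CD5hi. It was 11.01, 10.24, 10.64 and 10.75% in CD8 CD5lo and 13.18, 11.17, 10.92 and 11.43% in CD8 CD5hi. Counting error was far smaller than these differences, with a 95% Wilson interval of at most ±0.00763 percentage points, which covers counting error only and takes each count as 1 fragment. For CD4 cells the mean was 11.11 ± 0.50% (SD, n = 4) at low CD5 and 10.6 ± 0.67% at high CD5. For CD8 cells it was 10.66 ± 0.32% at low CD5 and 11.67 ± 1.02% at high CD5. The ranges of neighbouring groups overlapped in every case. Replicate 1 had the largest share in each group. With replicate 1 left out of every group, the means for CD4 cells were 10.95% at low and 10.34% at high CD5. Those for CD8 cells were then 10.545% at low and 11.17% at high CD5.

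**Figure D2:**
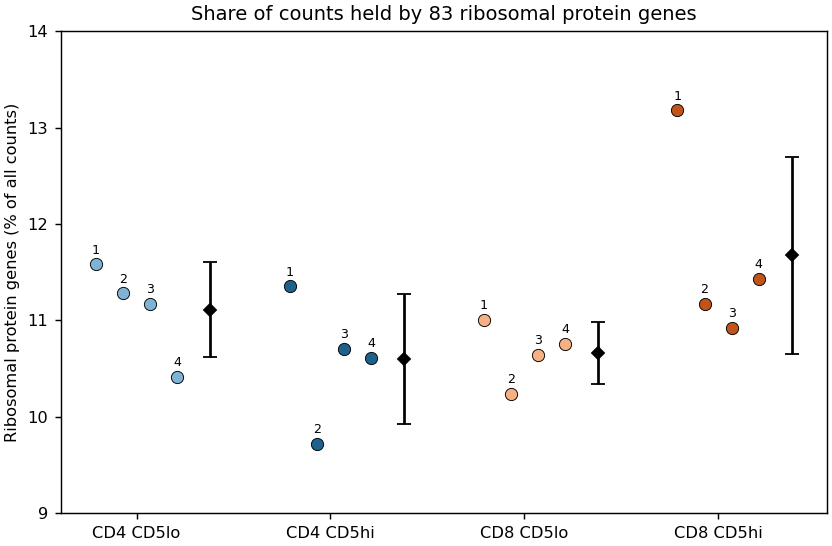
Share of all counts held by the 83 ribosomal protein genes (vertical, %, axis from 9 to 14) in each library; numbers are replicates, and the diamond and bar are the mean ± SD of 4 libraries. CD8 CD5hi replicate 1 stands highest at 13.18% and CD4 CD5hi replicate 2 lowest at 9.72%.

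In some of the 16 libraries most members lay on the same side of their own mean. In CD8 CD5hi replicate 1, 76 of the 83 genes lay above their own mean over the 16 libraries, with a median deviation of 0.32 on the log2 scale. In CD4 CD5lo replicate 1, 74 did, with a median of 0.11. In CD4 CD5hi replicate 2, 3 of 83 did, with a median of -0.20. In CD8 CD5lo replicate 2, 10 did, with a median of -0.12, and in CD4 CD5lo replicate 4, 14 did, with a median of -0.08. The remaining libraries had medians from -0.06 to 0.06. In CD8 CD5hi replicate 1 other short genes (coding sequence up to 1000 bases, members left out) had a median deviation of 0.15, the highest of the 16 libraries, and all tested genes one of 0.01. In replicate 1 of CD4 CD5lo, CD4 CD5hi and CD8 CD5lo these short genes had medians of 0.04, 0.08 and 0.04, each the highest of its group. The part of CD8 CD5hi replicate 1 in the results was not tested, and values without this library are given beside them. Against the rest, Rplp2, a partner of Rplp1 in the stalk, was lowest in CD8 CD5hi replicate 1, at 895 CPM against 951 to 1477 in the other 15.

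**Figure D3:**
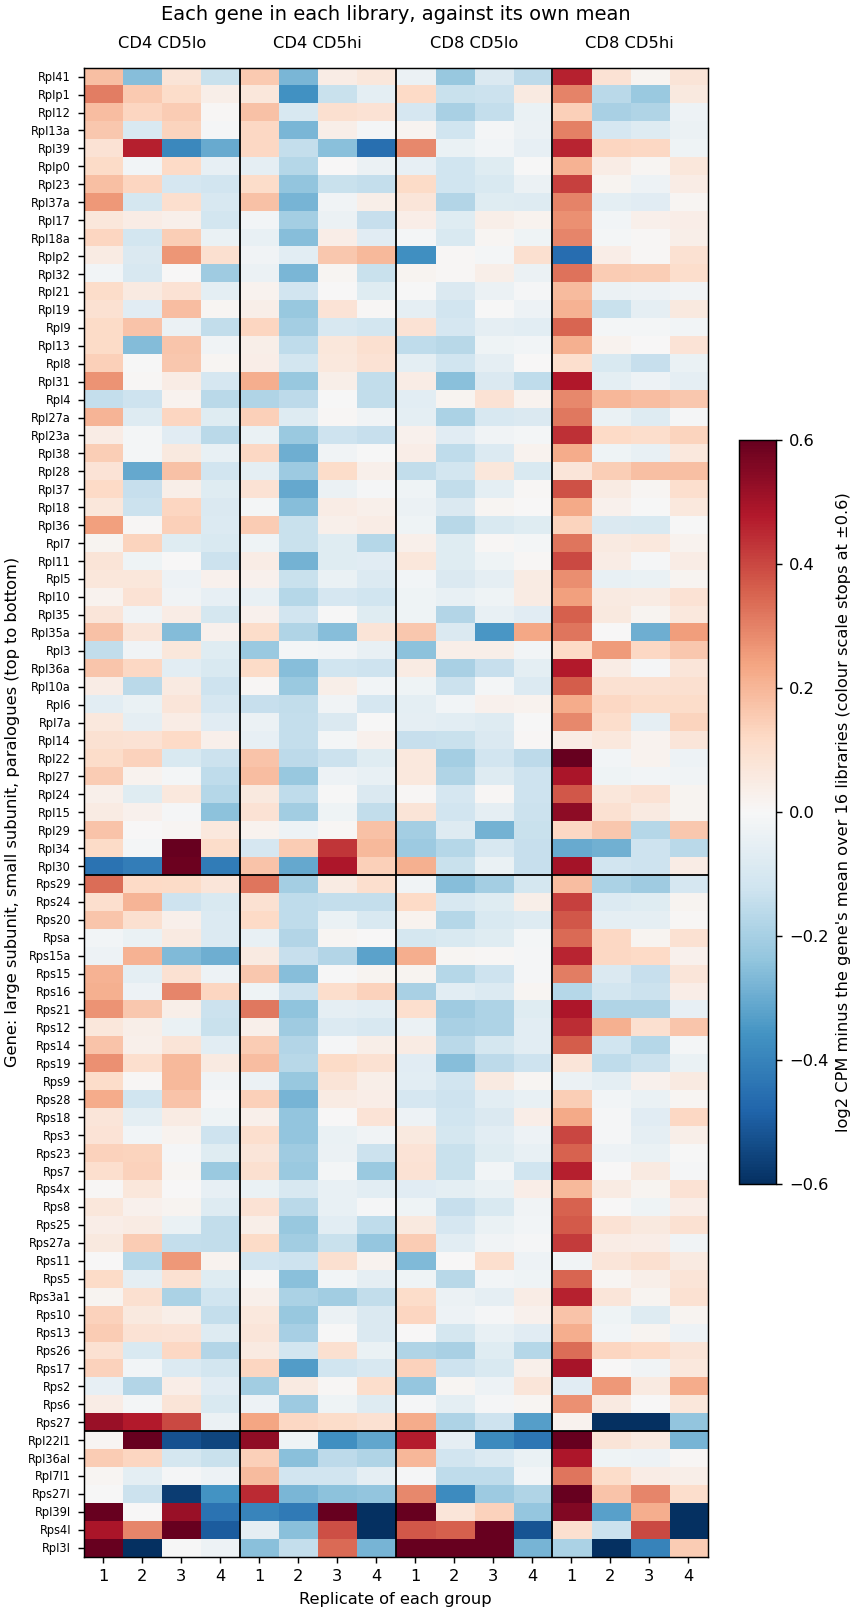
Each row is 1 of the 83 genes (large subunit, small subunit and paralogues, each ordered by level) and each column 1 library; colour is log2 CPM minus the gene's mean over the 16 libraries, red above and blue below. CD8 CD5hi replicate 1 is red in 76 rows and CD4 CD5hi replicate 2 blue in 80, while the paralogues at the bottom vary most.

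In CD8 cells, 2 small subunit genes rose with CD5. Rps12, a protein of the subunit's beak, was 1.28-fold higher in CD5hi, and Rps26, which lines the channel where the message leaves the ribosome, 1.25-fold. Rps12 stood at 1413, 1263, 1271 and 1382 CPM in CD8 CD5lo replicates 1 to 4 and at 1962, 1676, 1543 and 1623 CPM in CD8 CD5hi, so the groups did not overlap. The log2 change was 0.35 ± 0.08 (SE; edgeR adjusted p = 0.00911). Rps26 stood at 731, 724, 786 and 735 CPM in CD8 CD5lo and at 1046, 906, 901 and 874 CPM in CD8 CD5hi, again without overlap. Its log2 change was 0.32 ± 0.08 (edgeR adjusted p = 0.0144). Both kept this call in all 26 alternatives run, with log2 changes of 0.28 to 0.41 for Rps12 and 0.27 to 0.40 for Rps26.

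Of the 83 genes, 2 were called higher and 0 lower in CD8 CD5hi. Of all tested genes 5.95% were called higher and 3.51% lower, so the members' share of calls was not above the background. Small differences in the same direction were common: 75 of 83 log2 changes were above 0, against 49.6% of all tested genes. At an unadjusted p under 0.05, 26 were higher and 1 lower (12.5% and 10.2% of all tested genes), and 21 were higher with groups that did not overlap (8.31%). The median log2 change was 0.13, beside 0.00 for all tested genes and 0.06 for other genes with short coding sequences. Without CD8 CD5hi replicate 1 the median was 0.05, 67 of 83 changes were above 0 and the 2 genes called were again Rps12 and Rps26 (7.25% of all tested genes called). Large and small subunit genes had like medians, 0.14 over 45 and 0.12 over 31, and the 15 genes with little shared sequence had 0.13. With the replicate number as a block 26 were called higher and 1 lower, where 3390 of 13554 tested genes were called. In this comparison 2 of 4 same-numbered pairs deviated together, and 4 of 4 did in each of the other comparisons of groups. Read as pairs there, the numbers link the CD8 libraries too, by way of the CD4 libraries. The counts with the block therefore stand beside those without it.

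The changes farthest from 0 in CD8 cells belonged to paralogues and did not pass the test without the block. Rps27l, a paralogue of Rps27 that is induced by p53, stood at 19.4, 12.3, 13.7 and 14.1 CPM in CD8 CD5lo and at 38.7, 18, 19.5 and 17.2 CPM in CD8 CD5hi. Replicate 1 was the highest library in both groups, and the ranges overlapped (log2 change 0.65 ± 0.25, edgeR adjusted p = 0.123). With the replicate block the log2 change of Rps27l, CD8 CD5hi against CD5lo, was 0.60 ± 0.12 (edgeR adjusted p = 0.00308). Rpl22l1, which in T cell development acts beside its paralogue Rpl22, stood at 237, 165, 131 and 127 CPM in CD8 CD5lo and at 377, 181, 177 and 141 CPM in CD8 CD5hi. Its ranges also overlapped, with a log2 change of 0.41 ± 0.33 (edgeR adjusted p = 0.512). Rpl3l had the change farthest below 0, -0.95 ± 0.44 (edgeR adjusted p = 0.21), on at most 14 counts in a library.

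**Figure D4:**
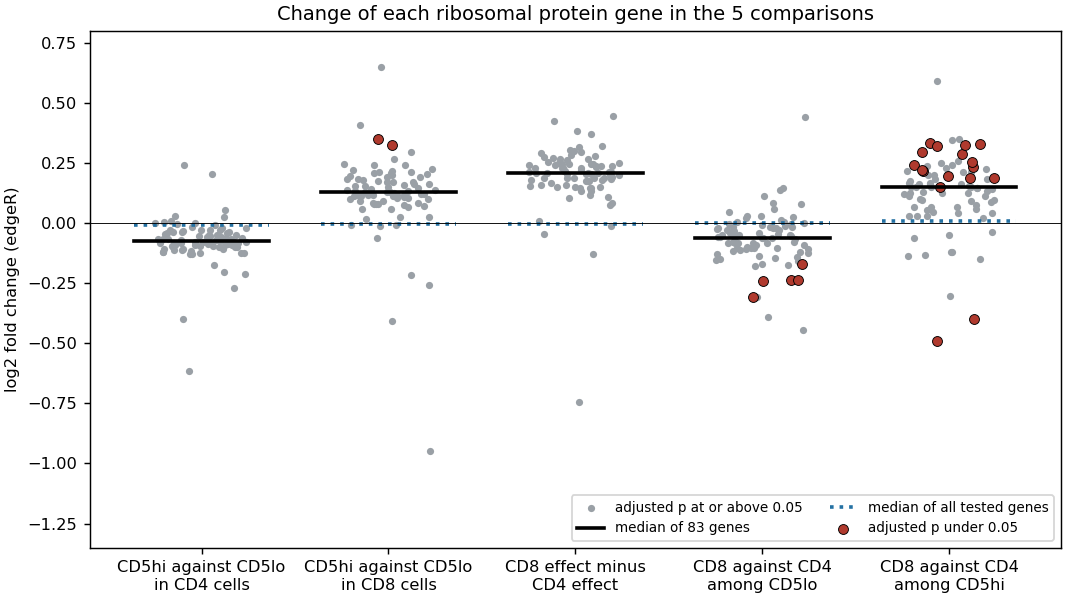
log2 fold change of each of the 83 genes (points, edgeR) in the 5 comparisons, with genes at an adjusted p under 0.05 in red. Black lines are the medians of the 83 genes (-0.07, 0.13, 0.21, -0.06 and 0.15 from left to right) and dotted lines those of all 13554 tested genes, which lie near 0.

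Markers of cycling cells moved with the same comparison. The 6 cycling markers, Mki67 and Top2a among them, summed to 195, 242, 176 and 64.9 CPM in CD8 CD5hi and to 20.6 to 53.1 CPM in CD8 CD5lo, and all 6 were called higher. In the same order of replicates, the share of ribosomal protein counts in CD8 CD5hi was 13.18, 11.17, 10.92 and 11.43%. The part of the cycling markers in the differences of the ribosomal protein genes was not tested. In bulk RNA a higher level in all cells and a larger number of cells with high levels cannot be told apart.

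In CD4 cells no ribosomal protein gene passed the test. By edgeR 0 of 83 were called in either direction, beside 4.08% of all tested genes. DESeq2 and limma voom also called 0, beside 5.73% and 4.09% of all tested genes. At an unadjusted p under 0.05, 0 were higher and 2 lower (7.17% and 5.25% of all tested genes): Rplp1 at -0.27 ± 0.11 and Rpl14 at -0.12 ± 0.05. Most changes were slightly below 0, with 9 of 83 above it (47.6% of all tested genes) and a median of -0.07, beside -0.01 for all tested genes. Without CD4 CD5hi replicate 2, 27 of 83 were above 0 and the median was -0.024. Replicates with the same number deviated together in this comparison, and with the replicate number as a block 2 genes were called lower, Rplp1 and Rps4l, where 9.68% of all tested genes were called. Rplp1 stood at 3447, 3107, 3013 and 2856 CPM in CD4 CD5lo and at 2926, 2169, 2540.1 and 2681 CPM in CD4 CD5hi, so the ranges overlapped while each numbered pair went down.

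Rpl14, a large subunit protein, was the single member whose CD4 groups did not overlap (lower without overlap: 3.69% of all tested genes). It stood at 1035, 1032, 1057 and 991 CPM in CD4 CD5lo and at 939, 881, 964 and 990.4 CPM in CD4 CD5hi. In CD8 cells its order was the other way, with 883, 885, 915 and 975 CPM in CD5lo and 1003, 1015, 985 and 1022 CPM in CD5hi. Neither difference passed the test after adjustment (edgeR adjusted p = 0.308 and 0.119).

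Whether the effect of CD5 differed between the lineages was tested directly, as the CD8 change minus the CD4 change. By edgeR 0 of 83 genes were called (0.177% of all tested genes higher, 0.133% lower). Before adjustment 19 genes had a p under 0.05 with a higher change and 0 with a lower (4.43% and 3.10% of all tested genes). DESeq2 called 2 higher, where 1.59% of all tested genes were called, and limma voom 0. The difference was above 0 for 79 genes (49.7% of all tested genes), with a median of 0.21 on the log2 scale. The gene nearest to the threshold was Rps12 at 0.43 ± 0.11 (edgeR adjusted p = 0.137), followed by Rpl14 at 0.26 ± 0.07 (adjusted p = 0.192). Without CD8 CD5hi replicate 1 the median was 0.14. With the replicate block edgeR called 3 genes higher, Rps12, Rpl14 and Rpl23a, where 2.80% of all tested genes were called. A difference between lineages thus passed the test for these genes only with the block or, for Rps12 and Rpl14, in DESeq2.

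Between lineages at high CD5, 15 of the 83 genes were higher in CD8 than in CD4 cells and 2 were lower. These comparisons use the same libraries as those by CD5 level and are not independent of them. Of all tested genes 15.6% were called higher and 14.8% lower, so the share called higher was near the background and that called lower was under it. The median log2 change was 0.15, beside 0.01 for all tested genes and 0.04 for other short genes, and 72 of 83 changes were above 0 (51.4% of all tested genes). Without CD8 CD5hi replicate 1 the median was 0.066 and 61 of 83 were above 0. Of the 15 higher genes, 8 belong to the large subunit and 7 to the small. Same-numbered libraries deviated together here as well, and with the replicate block 36 were higher and 39 called in all, where 46.7% of all tested genes were called. Markers of other cells moved with this comparison as well. All 6 cycling markers were called higher in CD8 cells, with a sum of 42.2 to 61.6 CPM in CD4 CD5hi and 64.9 to 242 CPM in CD8 CD5hi. Of the 15 B cell markers 1 was called higher and 14 had an unadjusted p under 0.05, with a sum of 11.4 to 39.3 CPM in CD4 CD5hi and 35.1 to 1007 CPM in CD8 CD5hi. When the 3 libraries with high B cell sums were left out, 12 members were higher and 1 lower. The share of all tested genes called in that fit is not given here, so these counts have no background beside them. The part of the cycling markers was not tested.

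Rpl4, a long core protein of the large subunit near the exit tunnel, had the smallest adjusted p. It stood at 2875, 2924, 3246 and 2939.6 CPM in CD4 CD5hi and at 3983, 3742, 3696.5 and 3637 CPM in CD8 CD5hi, without overlap. The log2 change was 0.33 ± 0.06 (edgeR adjusted p = 0.000473), and 20.3% of its coding words are shared with other genes. Rpl6, a large subunit protein, stood at 1228, 1222, 1334 and 1263 CPM in CD4 CD5hi and at 1578, 1477, 1461 and 1463 CPM in CD8 CD5hi. Its groups did not overlap either, at 0.24 ± 0.05 (edgeR adjusted p = 0.00242). Rpl23a, which lies at the mouth of the exit tunnel, stood at 1065, 941, 1005 and 995 CPM in CD4 CD5hi and at 1485, 1190, 1179.5 and 1203 CPM in CD8 CD5hi. The log2 change was 0.34 ± 0.07 (edgeR adjusted p = 0.00259), but 59.7% of its exonic bases overlap those of Tlcd1, and the strand setting of the counting is unknown.

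Rps12 was higher in CD8 cells at high CD5 too, by 0.32 ± 0.08 (edgeR adjusted p = 0.00489), and Rpl32 by 0.29 and Rpl10 by 0.22 followed. Coding words shared with other genes made up 20.3% in Rpl4, 37.6% in Rpl32, 93.2% in Rpl6 and 100% in Rpl23a, Rps12 and Rpl10. These 6 genes kept the call in all 26 alternatives. The other 9, Rps25, Rpl3, Rps3a1, Rpl7, Rpsa, Rps4x, Rps6, Rpl7a and Rps15a, had log2 changes of 0.15 to 0.33 and lost it in 2 to 9 of them. Rpsa encodes the laminin receptor form of a small subunit protein and Rps6 the subunit's substrate of S6 kinase. Without CD8 CD5hi replicate 1 the number called higher was 8, and without CD4 CD5hi replicate 2 it was 7. In these fits 28.3% and 26.0% of all tested genes were called in either direction. Rps26, which rose with CD5 in CD8 cells, was not called between lineages (0.17 ± 0.08, edgeR adjusted p = 0.118).

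The 2 genes lower in CD8 cells were standard genes with few counts. Rps27 stood at 11, 10.2, 10.1 and 9.96 CPM in CD4 CD5hi and at 9.49, 5.81, 6.17 and 7.93 CPM in CD8 CD5hi (log2 change -0.49 ± 0.16, edgeR adjusted p = 0.0306). Rpl34 stood at 5.92, 7.07, 8.56 and 7.27 CPM and at 5.15, 5.20, 5.84 and 5.68 CPM (-0.40 ± 0.14, adjusted p = 0.0389). Neither pair of groups overlapped. Given how low both lie against the other standard genes, it is uncertain that these counts follow the level of their messages. Rps27 lost the call in 7 and Rpl34 in 13 of the 26 alternatives.

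Between lineages at low CD5, 5 of the 83 genes were called, all lower in CD8 than in CD4 cells. Of all tested genes 9.44% were called lower and 19.5% in either direction. Rps19, a small subunit protein mutated in many cases of Diamond-Blackfan anaemia, stood at 1875, 1663, 1778 and 1613 CPM in CD4 CD5lo and at 1479, 1302, 1392 and 1423 CPM in CD8 CD5lo. The groups did not overlap, with a log2 change of -0.31 ± 0.08 (edgeR adjusted p = 0.0104). Rpl14 was lower by -0.17 ± 0.05, Rpl12, of the stalk base, by -0.24 ± 0.08, Rpl29 by -0.24 ± 0.08 and Rps16 by -0.23 ± 0.08 (edgeR adjusted p from 0.0306 to 0.0479). All 5 genes called share 50% or more of their coding words with other genes, so their levels are uncertain. The median over the 83 genes was -0.06, beside 0.00 for all tested genes.

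These calls at low CD5 were less stable. Leaving out the 3 libraries with high B cell markers, of which CD4 CD5lo replicate 3 and CD8 CD5lo replicate 3 are in this comparison, left 0 genes called. Rps19 then had a log2 change of -0.29 ± 0.11 (edgeR adjusted p = 0.0885), near that of the main fit but with a larger SE. The share of all tested genes called in that smaller fit is not given here, so the 0 has no background beside it. Without CD4 CD5lo replicate 1, CD4 CD5lo replicate 3 or CD8 CD5lo replicate 3 alone 1 gene was called lower. In these fits 16.4, 17.2 and 16.7% of all tested genes were called in either direction. Same-numbered replicates deviated together here too, and the replicate block gave 10 lower, where 32.1% of all tested genes were called.

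**Figure D5:**
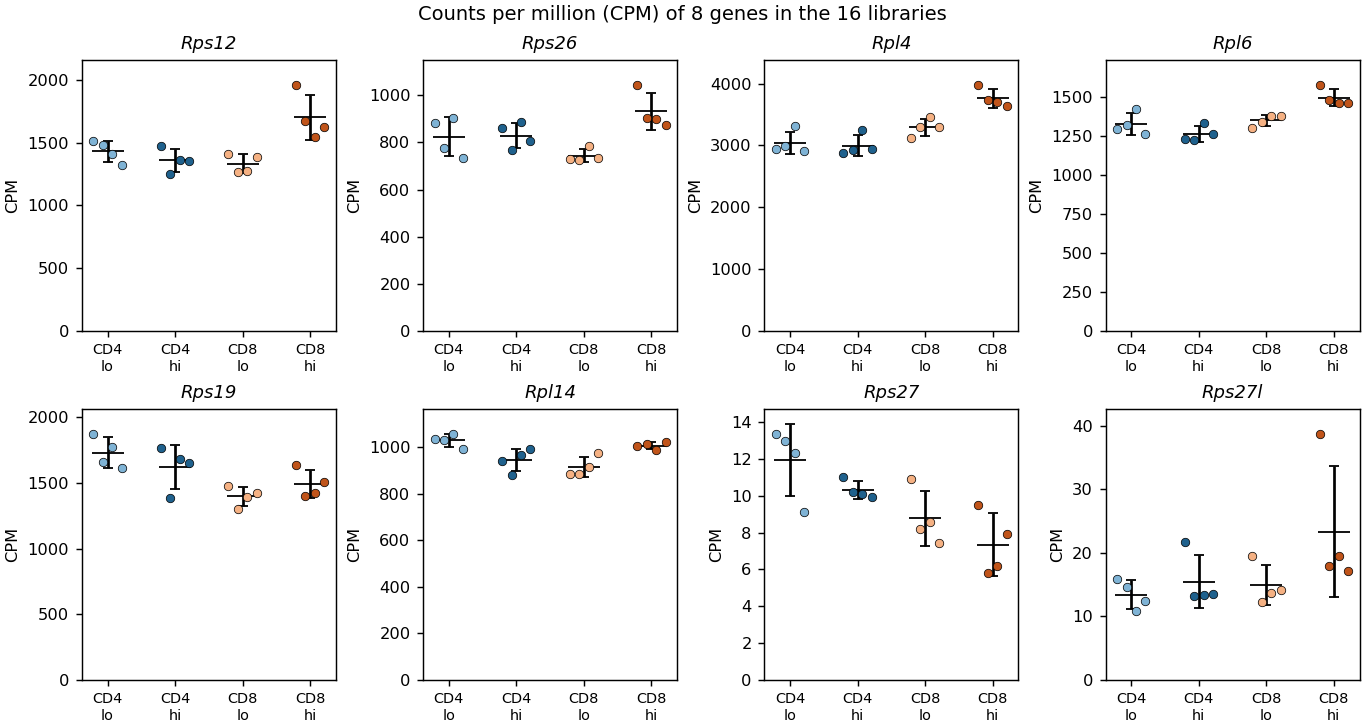
CPM of 8 genes (vertical, each axis from 0) in the 16 libraries by group; points are replicates 1 to 4 from left to right and bars the mean ± SD of 4 libraries. Rps12, Rps26, Rpl4 and Rpl6 are highest in CD8 CD5hi, Rps19 and Rps27 are lower in the CD8 groups, and Rps27l has a single high library in CD8 CD5hi.

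Genes that work with the ribosome were counted in the same fit. Of 61 ribosome assembly factors, which build the subunits in the nucleolus, 0 were called in CD4 cells by CD5 level (4.08% of all tested genes). In CD8 CD5hi 7 were higher and 0 lower, against 5.95% of all tested genes called higher. Between lineages 2 were higher and 1 lower at low CD5, where 1359 of 13554 tested genes were called higher and 9.44% lower. At high CD5, 24 were higher and 0 lower, against the 15.6% of all tested genes called higher. Their medians were -0.03 by CD5 in CD4 cells, 0.10 by CD5 in CD8 cells, and 0.05 at low and 0.21 at high CD5 between lineages, on the log2 scale. Dkc1, the pseudouridine synthase of ribosomal RNA, rose from 77.9 ± 3.33 to 101.2 ± 7.31 CPM in CD8 CD5hi (log2 change 0.38 ± 0.09, edgeR adjusted p = 0.0117). Mdn1 and Heatr1, large factors of the large and the small subunit pathway, were higher in CD8 cells at high CD5 by 0.36 ± 0.06 and 0.33 ± 0.06 (edgeR adjusted p = 0.000337 and 0.00035). Both were also higher at low CD5, by 0.21 ± 0.06 and 0.19 ± 0.06 (edgeR adjusted p = 0.0232 and 0.0256).

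Of 28 other messages known to have a TOP start, mostly elongation and initiation factors, 0 were called in CD4 cells by CD5 level (4.08% of all tested genes). In CD8 CD5hi 4 were higher (5.95% of all tested genes). In CD8 against CD4 cells 13 were higher at high CD5 (15.6% of all tested genes) and 1 at low CD5 (1359 of 13554 tested genes), and 0 were lower in any of these. The 4 include Vim, the intermediate filament vimentin, at 0.46 ± 0.07, Eif3l, of the initiation factor that binds the small subunit, at 0.27 ± 0.05, and the histone chaperone Nap1l1 at 0.43 ± 0.10 (edgeR adjusted p = 0.000831, 0.00442 and 0.0121). The median deviation of these 28 messages was above 0 in all 4 CD8 CD5hi libraries, from 0.11 to 0.18 on the log2 scale, and that of the assembly factors from 0.04 to 0.16. For the 83 ribosomal protein genes the same medians were 0.32, 0.00, 0.00 and 0.04. The snoRNA host genes, which share the TOP start, had 0.39, -0.14, -0.02 and -0.18. Replicate 1 was thus far above the other 3 in ribosomal protein genes and snoRNA hosts, and nearer to them in the assembly factors and the other TOP messages.

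Of 28 regulators of mTORC1 and of TOP messages, 1 was higher in CD8 CD5hi, where 5.95% of all tested genes were. It was Tbc1d7, a subunit of the TSC complex that restrains mTORC1, at 0.63 ± 0.14 (edgeR adjusted p = 0.0109). In CD8 against CD4 cells 5 were higher at high CD5, where 15.6% of all tested genes were. At low CD5 4 were higher, where 1359 of 13554 tested genes were. Myc, which drives ribosome synthesis, was among both, at 0.58 ± 0.08 and 0.52 ± 0.08, and did not pass by CD5 level in CD8 cells (0.02 ± 0.08, edgeR adjusted p = 0.927). Eif4ebp1, the translation repressor that mTORC1 switches off, was higher at 0.97 ± 0.16 and 0.57 ± 0.16. Of 9 snoRNA host genes 0 passed in any comparison.

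Of the ribosomal proteins that the naming rule does not reach, Gnb2l1 (now Rack1) and Fau are described here. Gnb2l1, a scaffold on the small subunit, was higher in CD8 than CD4 cells at high CD5, by 0.20 ± 0.06 (edgeR adjusted p = 0.0187), beside 15 of the 83. Fau, which is made as a fusion to a ubiquitin-like sequence, passed in none of the comparisons.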

How the data were processed

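RNA of 16 sorted T cell samples was sequenced after TruSeq RNA v2 or TruSeq stranded mRNA library construction, per the labels' protocols; the sources used here do not tie kits to samples. Reads were aligned to mm10; the tools named are STAR 2.5.2a, featureCounts 1.4.6-p3 and DESeq2, per the submitters' processing notes. The deposited values are raw counts per gene, whole numbers with differing totals. All columns were matched to samples by title (0 unmatched). Even numbers made up 73.9 to 80.5% of the counts from 1 to 9 and 49.2 to 51.3% of those from 1000 up. Whether read pairs were counted as 2 in some samples could not be settled. Within groups, all 24 pairs of libraries differed beyond sampling noise (chi-square per degree of freedom from 29.2 to 210.9).

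Genes were tested over the whole table with edgeR 4.0.16 in R 4.3.3: TMM factors, the filterByExpr filter (minimum count 10, minimum total 15), which left 13554 genes, 1 term per group over 16 libraries (12 residual degrees of freedom), tested by quasi-likelihood. Two-sided p-values were adjusted within each of 5 comparisons over all tested genes (Benjamini-Hochberg, threshold 0.05). SEs were derived from the F statistic. CPM values use TMM library sizes. The share of counts was taken from the counts as deposited. Depth of 71447252 counts or more leaves replicate spread as the main error for all but the lowest genes. Gene positions, coding lengths and shared 50-base words come from GENCODE vM21 (GRCm38), with promoters from RefSeq (GRCm38.p6).

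The members and lists were chosen with earlier results of these data known. Genes with values are members called in any comparison, paralogues and their partners, the 3 highest and 3 lowest levels, the 3 largest and smallest replicate SDs and the 3 largest changes each way by CD5, and at most 4 genes of each companion list; Rplp2 was chosen after its values were seen. Marker lists covered T cells, lineages, naive, B, myeloid, natural killer and cycling cells. Myeloid markers summed to 10.5 to 39.0 CPM and natural killer markers to 0.102 to 5.71 CPM per library, naive markers to 3104 to 4426, CD4 markers to 1318 or more in CD4 libraries and at most 83.2 in CD8 libraries, and CD8 markers to 2696 or more in CD8 libraries and at most 144 in CD4 libraries.

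Replicate numbers come from the sample titles. Same-numbered libraries correlated in their deviations from group means at 0.25 to 0.53 in the CD4 comparison by CD5, 0.20 to 0.70 between lineages at low CD5 and 0.23 to 0.54 at high CD5 (4 of 4 pairs above 0.1 in each), but at -0.04 to 0.56 in the CD8 comparison by CD5 (2 of 4 pairs). The numbers were read as pairing the libraries in the first 3 comparisons. By way of the CD4 libraries this reading links the same-numbered CD8 libraries too, though only 2 of 4 of those pairs deviated together. The main fit does not use the pairing, so counts with the replicate block are given beside it. Alternatives were other size factors, tools, filters, the replicate block and leaving out each library. Leaving out the 3 libraries with high B cell markers, and halved counts, were added after seeing the data.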

Additional observations from a re-analysis of the deposited data

Results flagged for a closer look

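Within groups of 4, a library was marked where its gap to the nearest other exceeded Dixon's 95% critical value. Of 156 group values (38 named genes and the share of counts), 19 were marked. Chance marks about 1 in 20 independent values. These values are not independent, since the genes moved together within libraries, and some genes were named for a large SD or change. CD8 CD5hi replicate 1 was the high library in 11 of the 19 marks. There Rpl6 stood at 1578 CPM (others up to 1477), Rpl23a at 1485 (1203), Rps25 at 1380.3 (1141), Rps3a1 at 2794 (2163), Rpl7 at 2105 (1761), Rpl41 at 1337 (1029.8), Rpl22 at 729 (489), Rpl36a at 716 (543), Rpl22l1 at 377 (181), Rpl36al at 190.5 (137) and Rps27l at 38.7 (19.5). The groups' tests with and without this library are in the comparisons above, and the cause was not tested.

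In CD4 CD5hi replicate 1, Rpl3 was low at 1709.7 CPM (others 1937 to 1981) and Rps27l high at 21.7 (others up to 13.5). In CD4 CD5lo replicate 3, a library rich in B cell markers, Rpl34 was high at 9.84 CPM (others up to 6.88) and Rpl30 at 0.927 (0.462). In CD8 CD5lo replicate 1, Rps15a was high at 1835 CPM (1591) and Rpl39 at 849 (685). In CD4 CD5lo replicate 1, Rps29 was high at 2242 CPM (1930.0). In CD8 CD5hi replicate 3, Rpl29 was low at 389.6 CPM (others 478 to 490.2).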

How the results depend on the processing

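The medians of the 83 genes kept their sign in all 5 comparisons under all alternatives. Leaving out 1 library gave medians of -0.114 to -0.024 by CD5 in CD4 cells, 0.052 (without CD8 CD5hi replicate 1) to 0.183 in CD8 cells, 0.145 to 0.256 for the difference between them, -0.107 to -0.034 between lineages at low CD5 and 0.066 (without CD8 CD5hi replicate 1) to 0.197 at high CD5. Counts of calls moved more. With the replicate block the calls were 2 lower by CD5 in CD4 cells (9.68% of all tested genes called), 26 higher and 1 lower in CD8 cells (3390 of 13554 tested genes called), 3 higher in the difference (2.80%), 10 lower at low CD5 (32.1%) and 36 higher at high CD5 (46.7%). In CD8 cells by CD5 same-numbered libraries did not all deviate together (4 of 8 correlated best with their own number), so the pairing there rests on the other comparisons of groups. In CD8 cells by CD5, where 2 were higher, library totals alone gave 4 (9.29% of all tested genes called) and normalisation without the members 5 (9.58%). DESeq2 gave 10 (13.2%). Halved counts gave 4, for which the share of all tested genes is not given here. Leaving out 1 library gave 2 to 5. The count was 5 without CD4 CD5lo replicate 1 (9.08%) or CD8 CD5hi replicate 3 (7.43%). It was 4 without CD4 CD5lo replicate 2 (9.71%) or 3 (9.23%) or CD4 CD5hi replicate 2 (8.53%) or 3 (8.27%). DESeq2 gave 2 higher in the difference (1.59% of all tested genes called). At low CD5 no filter gave 1 lower (13.3% of all tested genes called) and DESeq2 8 (22.4%). The set without the 3 libraries gave 0, for which the share of all tested genes is not given here. Leaving out 1 library gave 1 to 7, with 7 without CD8 CD5hi replicate 1 (21.4%). The count was 2 without CD4 CD5hi replicate 3 (18.3%) or CD8 CD5lo replicate 1 (16.5%) or 2 (15.4%). It was 3 without CD4 CD5lo replicate 2 (18.2%) or CD8 CD5hi replicate 2 (18.2%). At high CD5 the fit of only the groups compared gave 8 higher and 1 lower (26.0% of all tested genes called). No filter (20.9%) and the set without the 3 libraries (share not given here) gave 1 lower each. Leaving out 1 library gave 7 to 22 higher and 0 to 2 lower. The 7 came without CD4 CD5hi replicate 2 (26.0% of all tested genes called) and the 22 without CD4 CD5hi replicate 1 (28.0%). The count of 2 lower was 0 without any of CD4 CD5hi replicates 2, 3 or 4 or CD8 CD5hi replicates 2 or 3. Among single genes, 781 values kept their side of the threshold and sign, 121 lost a call, 4 gained one and 2 reversed, neither past the threshold: the log2 change of Rps27l, CD4 CD5hi against CD5lo (-0.00318 without CD4 CD5hi replicate 1, up to 0.297 on leaving out others), and the log2 change of Rps4l, CD8 CD5hi against CD5lo (0.028 without the 3 libraries). The causes were not tested. Few counts limit Rpl3l, Rpl30 and Rpl39l.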
